A study of Mus musculus with 614 samples.

Results

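Granulocyte-monocyte progenitors (GMP) are bone marrow cells that give rise to neutrophils, monocytes and other myeloid cells. The GMP described here were all 51 single cells labelled with the gate Lin-c-Kit+CD16/32hiCD34+Sca-1-, in a series that holds 563 more single cells in 11 other sort gates. They came from the bone marrow of untreated adult C57BL/6J mice, 7 to 10 weeks old. The cells were enriched on magnetic beads, sorted, captured one by one on a microfluidic chip, and copied to cDNA from their poly(A) tails. No label names an animal or a pool, so the whole gate counts as 1 sample: every SD below is over cells, and no test between gates or between sets of cells was made. All gates share strain, age range and the absence of treatment, and all are from bone marrow but blood pre-DC, dendritic cell precursors from blood, which enter only where genes are ranked over the 12 gates. GMP were compared with 65 lymphoid-primed multipotent progenitors (LMPP, Lin-c-Kit+ cells that were CD16/32int, CD34+ and Sca-1+ and lacked CD127), 66 common monocyte progenitors (cMoP, Lin-CD11b-CD115+Ly6ChiFlt3-c-Kit+) and 48 common lymphoid progenitors (CLP, lineage-negative cells low in c-Kit and in Sca-1, positive for CD127, CD34 and Flt3 and without Thy-1). For a few genes, 30 pre-pro-B cells, 27 plasmacytoid dendritic cells (pDC) and the other gates stand beside them.

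Neutrophils store proteases and peroxidase in granules that are filled in order: the primary (azurophilic) granule proteins are made first, in early progenitors, and the secondary and tertiary granule proteins later, as the cell matures. In GMP, high C/EBP and Gfi1 activity is known to favour the neutrophil fate, and Irf8 with Klf4 the monocyte fate. Basophils, mast cells and eosinophils arise from neighbouring progenitors that use Gata2 and Gata1.

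The labels were checked against marker genes before any comparison. All values are TPM, a share of each cell's transcripts scaled for gene length, so levels of different genes may be set side by side, but read depth is unknown. Genes detected at 1 TPM or above, used here in place of depth, ran from 2998 to 7375 per GMP cell with a median of 5792. That was above the medians of LMPP (3292) and CLP (3280) and below that of cMoP (6671). Library numbers run unbroken through CLP, pre-pro-B cells and GMP, while the numbers of LMPP and of cMoP form separate blocks. In the contrasts with LMPP and cMoP, the gate and the block of libraries cannot be told apart. Sort transcripts fitted the gate in part: Fcgr3, which encodes CD16, had a median of 371 TPM and Cd34 a median of 162.9 TPM, but Ly6a, which encodes Sca-1, was at 1 TPM or more in 43 of 51 cells. Transcripts of Pax5, Cd3e and Cd4 were listed at 0 in all 51 cells. Not every lineage gene was absent: the mean log2(TPM + 1) was 2.86 ± 1.77 for Ly6g and 0.94 ± 1.73 for Itgam (SD over cells). By sex-linked transcripts 29 cells had only Xist, 13 only Y-linked transcripts, 3 both and 6 neither, so at least 1 animal of each sex contributed, while 64 of 65 LMPP had only Y-linked transcripts. A few GMP stood apart and are named by their label number throughout. These were cells 24, 37 and 43 with erythroid genes, cells 3 and 23 with high Ly6d, cell 2 with Cd74, and cells 6, 19, 34 and 36 with 11.5% to 13.9% mitochondrial TPM. Cells 2, 6, 19, 24, 34, 36, 37 and 43 were chosen after their values were seen.

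Among the genes with the highest mean TPM in GMP were 4 primary granule genes. The sequence before their start sites is shown because these 4 genes varied together from cell to cell. Elane (neutrophil elastase, gene at chr10:79886247-79888215) and Prtn3 (proteinase 3, gene at chr10:79874476-79883174) are neighbours on the plus strand of chromosome 10. Mpo (myeloperoxidase) is at chr11:87793581-87804413 on the plus strand. Ctsg (cathepsin G, chr14:56099881-56102574, minus strand) lies beside Mcpt8 (chr14:56082166-56085273, minus strand), the protease of basophils described below; these gene coordinates are GENCODE on GRCm38. The 250 bases before each RefSeq start (GRCm38.p6) were searched on both strands for GAGGAAG, an Ets-type motif of the kind Spi1 (PU.1) binds, and for TTGCNNAA, a C/EBP-type motif. The sequences below, 5′ to 3′ along the gene, are the part of each window up to where GENCODE has an exon of the gene, and overlap none of its exons. The Prtn3 stretch lies inside the longer GENCODE gene, in an intron. They are chr10:79886062-79886246 for Elane, chr10:79879417-79879613 for Prtn3, chr11:87793534-87793580 for Mpo and, on the minus strand, chr14:56102575-56102824 for Ctsg. Capitals mark GAGGAAG.
Elane: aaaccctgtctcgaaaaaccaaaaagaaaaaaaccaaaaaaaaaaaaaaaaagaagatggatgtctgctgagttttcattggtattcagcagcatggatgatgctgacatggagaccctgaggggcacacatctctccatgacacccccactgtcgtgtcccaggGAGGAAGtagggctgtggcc
Prtn3: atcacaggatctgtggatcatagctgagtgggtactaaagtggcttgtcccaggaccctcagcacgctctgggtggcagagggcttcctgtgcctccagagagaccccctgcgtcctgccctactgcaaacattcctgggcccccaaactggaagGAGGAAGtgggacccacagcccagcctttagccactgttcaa
Mpo: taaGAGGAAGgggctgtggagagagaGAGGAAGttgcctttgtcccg
Ctsg: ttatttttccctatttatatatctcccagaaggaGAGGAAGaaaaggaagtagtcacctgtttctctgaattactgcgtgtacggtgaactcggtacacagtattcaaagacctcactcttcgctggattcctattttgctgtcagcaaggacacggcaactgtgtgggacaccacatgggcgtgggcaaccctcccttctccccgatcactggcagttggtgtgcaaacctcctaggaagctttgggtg
GAGGAAG stood on the gene's own strand in all 4 windows. It began 85 bases before the RefSeq start in Elane, 95 in Prtn3 and 216 in Ctsg, and in Mpo it stood at 2 places, the nearer one 224 bases before the start. Of 32851 windows of this length in the RefSeq table, 10.6% held GAGGAAG and 9.56% held TTGCNNAA on either strand. TTGCNNAA was in none of the 4 windows, which says only that these letters are not there. A match is a description of the letters and not a binding site.

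Primary granule transcripts were at high levels in nearly every GMP. Elane was at 376 TPM in the lowest cell, 8498 at the median and 33098 in the highest. Mpo ran from 241.8 through 14138 to 29178.5 TPM. Together with Prtn3 (31.5, 4159.6 and 14359.7 TPM, lowest, median and highest) and Ctsg (208, 3850.4 and 9299 TPM), they took 3.18% of all TPM in the median cell. The share ranged from 0.0857% in cell 37 to 7.28% in cell 29, and the 3 cells with erythroid genes are among the 4 lowest. In cMoP the median share was 1.80%, in LMPP 0.0280% and in CLP 0.00625%. Among genes for granule handling, Srgn, the proteoglycan core that packs proteases, had a median of 1484 TPM. Ms4a3, a membrane protein of this stage, had a median of 911.4 TPM. Ctsc, which activates the serine proteases, had a median of 118 TPM and Serpinb1a, which inhibits them, a median of 245.2 TPM. Of the 12 primary granule genes listed, 11 were present, and Bpi was listed at 0 in all GMP.

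The later part of the neutrophil programme was low. Camp, Ltf and Ngp, which define secondary granules, were listed at 0 in all 51 cells, as were S100a9, Mmp9, Retnlg and Itgb2l. No GMP had 3 or more of the 15 later granule genes at 100 TPM, which allows a share of up to 5.88% of such cells, while 7 cells had 3 or more at 10 TPM and 12 at 1 TPM. The count at 100 TPM was 0 in LMPP, cMoP and CLP too. The members that did appear were Lcn2 (lipocalin 2) at 100 TPM or more in 8 cells, S100a8 in 5, and Fcnb and Mmp8 in 2 cells each. Lcn2 and S100a8 were both at that level in 2 cells. Cell 29 was the extreme. It had the highest Elane and Ms4a3 (8519 TPM), the highest S100a8 (3311 TPM), the lowest Irf8 (0.6 TPM) and the highest granule share. Over the 51 cells the later granule score rose with the primary granule score (Spearman 0.55, a description over cells that share gate and block of libraries), where a score is the mean log2(TPM + 1) of a list's members.

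Myeloid transcription factors ranged from low to high levels. The gate had the highest mean of the 12 gates for Spi1, Cebpa, Cebpb, Cebpd, Cebpe, Cebpg, Gfi1, Nfe2, Myb and Myc. Only CLP and pre-pro-B cells share the block of library numbers with GMP. In this and later rankings of the 12 gates, gate and block cannot be told apart for the other gates. Spi1, the general myeloid factor, was at 0, 314.97 and 635.8 TPM (lowest, median, highest) and at 100 TPM or more in 47 of 51 cells. Cebpa, needed to form GMP, was low, with a median of 11.98 TPM and none of 51 cells at 100 TPM. Cebpe, which drives secondary granules, was at 1 TPM or more in 20 cells, at most 55.9 TPM, and Gfi1, a repressor that favours neutrophils, was in 18 cells, at most 90.6 TPM. Irf8, the monocyte and dendritic factor, was nearly everywhere: 0.6, 349.8 and 1667 TPM, with 42 cells at 100 TPM or more. Its partner Klf4 was in 24 cells at no more than 77.9 TPM.

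Placed among all gates, the fixed GMP markers separated into genes that peaked in GMP and genes shared with other lineages. For Elane the mean log2(TPM + 1) was 12.79 ± 1.497 in GMP (SD over 51 cells), 11.46 ± 1.89 in cMoP and 3.41 or lower in the other 10 gates. Mpo was 13.28 ± 1.40 in GMP and 13.04 ± 1.13 in cMoP, a gap well inside the spread over cells, and the next gate was CLP at 5.76 ± 2.36. CLP share the block of library numbers with GMP, and of 48 CLP Mpo was above 0 in 48 and Elane in 46. Whether these transcripts came from neighbouring libraries was not tested. Prtn3 and Ctsg gave the same order of the first 2 gates, with GMP at 11.75 ± 1.31 and 11.66 ± 1.11 and cMoP at 10.43 ± 1.07 and 9.83 ± 1.21. F13a1, the coagulation factor XIII A chain that marks monocyte progenitors, was higher in cMoP (9.22 ± 1.40) than in GMP (7.55 ± 2.25). Irf8 put GMP only seventh of 12, at 7.73 ± 1.94, next to cMoP (7.86 ± 1.21) and CDP (7.34 ± 3.27), common dendritic cell progenitors, and far above LMPP (0.70 ± 2.20). Cebpe was low in GMP (1.64 ± 2.17) and the next gate, cMoP, was at 0.13 ± 0.66.

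**Figure D1:**
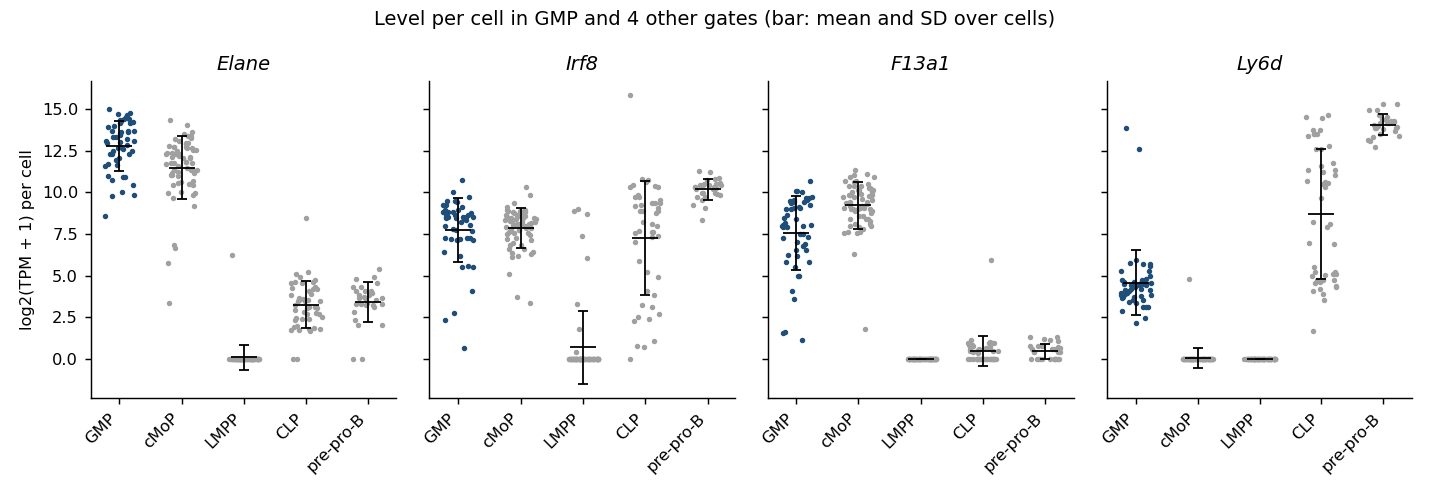
Log2(TPM + 1) of Elane, Irf8, F13a1 and Ly6d in each cell of 5 gates; each point is 1 cell, and the bar and whiskers are the mean and SD over cells. Elane is high in GMP and cMoP (means 12.79 and 11.46), Irf8 spreads widely within GMP, F13a1 is highest in cMoP, and 2 GMP stand far above the other 49 for Ly6d.

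Growth factor receptors of both lineages were present at modest levels. Csf1r, the receptor for M-CSF, had a median of 41.97 TPM and reached 372 TPM, and Csf3r, the receptor for G-CSF, a median of 30.3 TPM and a maximum of 192 TPM. At 100 TPM or more 19 cells had Csf1r and 10 had Csf3r, and 4 cells had both. Csf2ra and Csf2rb, chains of the GM-CSF receptor, had medians of 27.4 and 26.4 TPM. Il3ra had a median of 14.1 TPM. Il5ra, the eosinophil growth factor receptor, was listed at 0 in all cells, and Flt3, the receptor of early and lymphoid progenitors, was below 1 TPM at the median. Genes for folding and export of secreted proteins, the machinery that granule proteins pass through, were at a median of 40.5 TPM (Dnajc3) to 1384 TPM (Calr) over the 15 genes listed, and some were even over cells and others not. Sec61b had the smallest SD of the list (0.60 on the log2 scale) and Pdia4 the largest (2.93). Calr had 241, 1384 and 3239.9 TPM and Sec61b 296, 1063 and 2004 TPM (lowest, median, highest).

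Within the gate, the clearest difference among cells after the number of genes per cell ran along monocyte genes. In a principal component analysis of 6635 genes, component 1 held 13.2% of the variance and followed genes per cell (Spearman 0.99). Component 2 held 3.78% and followed the monocyte score (0.86) and the growth factor receptor score (0.65), and ran against the basophil and mast cell score (-0.59). Its leading genes on the monocyte side were Lgals3 (galectin 3), the calcium-binding proteins S100a6 and S100a4, Ifi30, Slfn2, Anxa2, Ctsh and Pld4. On the other side they were Pde4d, Ifi27, Tspan4, Cd63, Hdc, Gpr56, Ndufaf1 and Spint2. Cd63 is a granule membrane protein, and Hdc makes histamine. Lgals3 and S100a4 belong to the monocyte list and Hdc to the basophil list, so these correlations share members with the component.

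**Figure D2:**
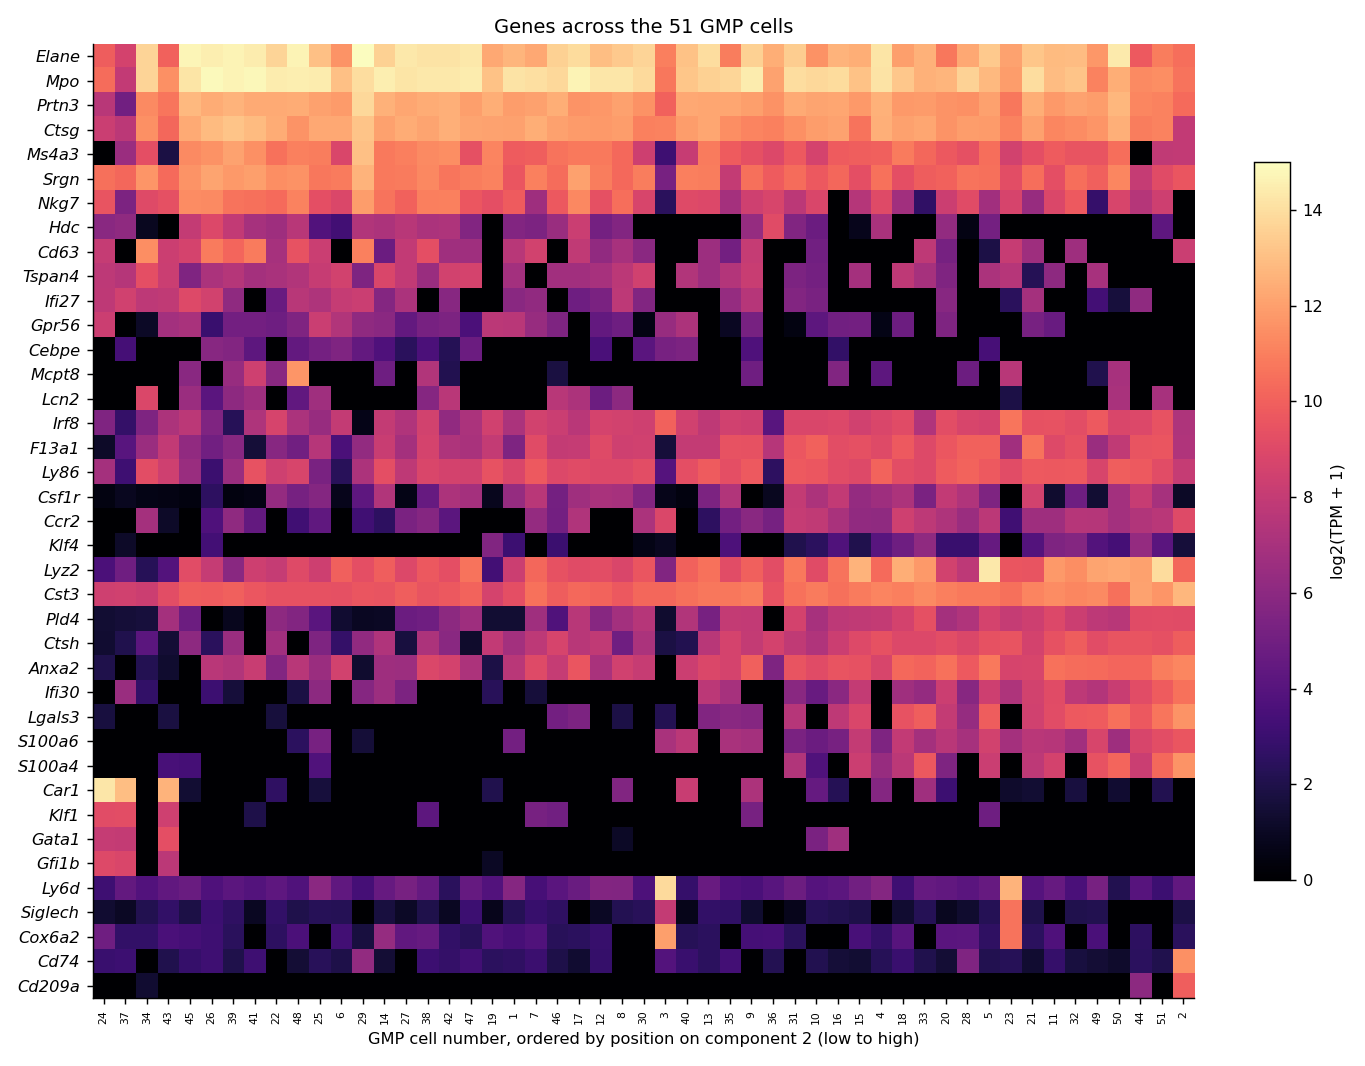
Log2(TPM + 1) of named genes (rows, grouped by list) in the 51 GMP (columns), ordered by the second principal component from low to high; colour gives the level. Lgals3, S100a6 and S100a4 are on at the right end, Hdc and Cd63 mostly at the left, and Elane and Mpo are high almost throughout.

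Some genes at the ends of this component were near 0 in most cells and high in a few, such as Lgals3 and S100a4, while others, such as Anxa2 (median 377 TPM, 38 cells at 100 TPM or more) and Ctsh (median 191 TPM, 33 cells), were in most cells. Lgals3 had a median of 2.22 TPM and a maximum of 3227 TPM, and had the largest SD over cells (4.22 on the log2 scale) of 2324 genes considered, followed by Cd63 (4.03) and S100a4 (3.88). At 100 TPM or more, 15 cells had Lgals3, 19 had S100a6 and 13 had Hdc. No cell had both Hdc and Lgals3, and none had both Hdc and S100a6. All 12 cells with S100a4 also had Lgals3, and 13 of the 15 cells with Lgals3 had the chemokine receptor Ccr2. In contrast, 10 of the 13 cells with Hdc had Cd63 and 1 had Ccr2. These pairs were picked from the component, which was computed on the same cells, so the counts describe it and lend it no support. Other genes with large SDs were Trem3, Ifi30, the chemokine Ccl3 (0, 160 and 4374 TPM), Fcor, Plp2, Dmkn, Hist1h4d, Akr1c13 and Lst1; Rnu3b4 and Rnu3b2 are near-identical copies with the same values in each cell, and are uncertain.

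Single genes were also compared with Irf8 and F13a1. Irf8 belongs to the monocyte list, and component 2 was oriented by Irf8, so the genes named here lend the component no support. Cells 3 and 23, with the highest Irf8 of the gate, had monocyte scores of 3.78 and 4.87, below the median of 5.15. The genes most like Irf8 over the 51 cells, of 6002 compared, were Fcer1g (Spearman 0.69), Cst3 (0.66), Prdx4, Fmnl1, Add3, Pld4, Ctsh and Ighm, and those least like it were Mif (-0.63), Nedd4, Cdv3, Cd63 and Hdc (-0.54). Most like F13a1 were Lamp1 (0.73), Ly86 (0.72), Cfp, Pld4, Tspo, Ighm, Laptm5 and Cst3, and F13a1 and Irf8 themselves gave 0.58. At 100 TPM or more, 42 cells had Irf8 and 37 had F13a1, and 34 had both. The monocyte side held proteins of the lysosome and of complement, such as cathepsin H (Ctsh), Lamp1 and properdin (Cfp). A monocyte programme of 3 or more of the 17 listed genes at 100 TPM was found in 47 of 51 cells (92.2%, exact Clopper-Pearson 95% interval 81.1 to 97.8, counting error only). It was found in 98.5% of cMoP, 66.7% of CLP, 93.3% of pre-pro-B cells and 4.62% of LMPP, so in lymphoid gates the list, which includes Irf8, does not mark monocytes. The 4 GMP under 3 members were cells 24, 26, 37 and 39, and 2 further cells had exactly 3.

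Elane followed the granule genes and the proteins packed with them. The genes most like Elane were Srgn (0.76), Mpo (0.75), Prtn3 (0.72), Ms4a3 (0.72), Plac8 (0.70), Lta4h, Ctsg (0.66) and Nkg7. Lta4h makes the chemoattractant leukotriene B4, and Nkg7 is a granule membrane protein. Least like Elane were Top2a (-0.59), Dek, Tubb4b, Ptma and Tmsb10, of which Top2a serves DNA replication and mitosis and Dek and Ptma bind chromatin. Against single factors, Elane gave 0.45 with Gfi1, 0.39 with Cebpe and 0.54 with Hdc. Elane and Irf8 gave -0.34. The ER folding score rose with the primary granule score (0.67), but also with genes per cell (0.78).

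Whether granule and monocyte genes opposed each other depended on a few cells. Over all 51 cells the primary granule and monocyte scores gave a Spearman correlation of -0.06. Without the 10 cells that stand apart it was -0.60 in the remaining 41, and Elane with Irf8 went from -0.34 to -0.64. The primary granule score of all 10 lay below the median of the gate (9.56), at 5.68 in cell 37, 5.99 in cell 3 and 6.11 in cell 24, and the monocyte score of all but cell 2 lay below its median (5.15). Without the erythroid cells alone the correlation was -0.25, without the cells of high mitochondrial share alone it was -0.23, and Pearson's coefficient over all 51 was 0.13. This exclusion was chosen after the data were seen, and the cells were found by genes outside both lists. The correlations are descriptions over cells of 1 gate and 1 block of libraries.

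**Figure D3:**
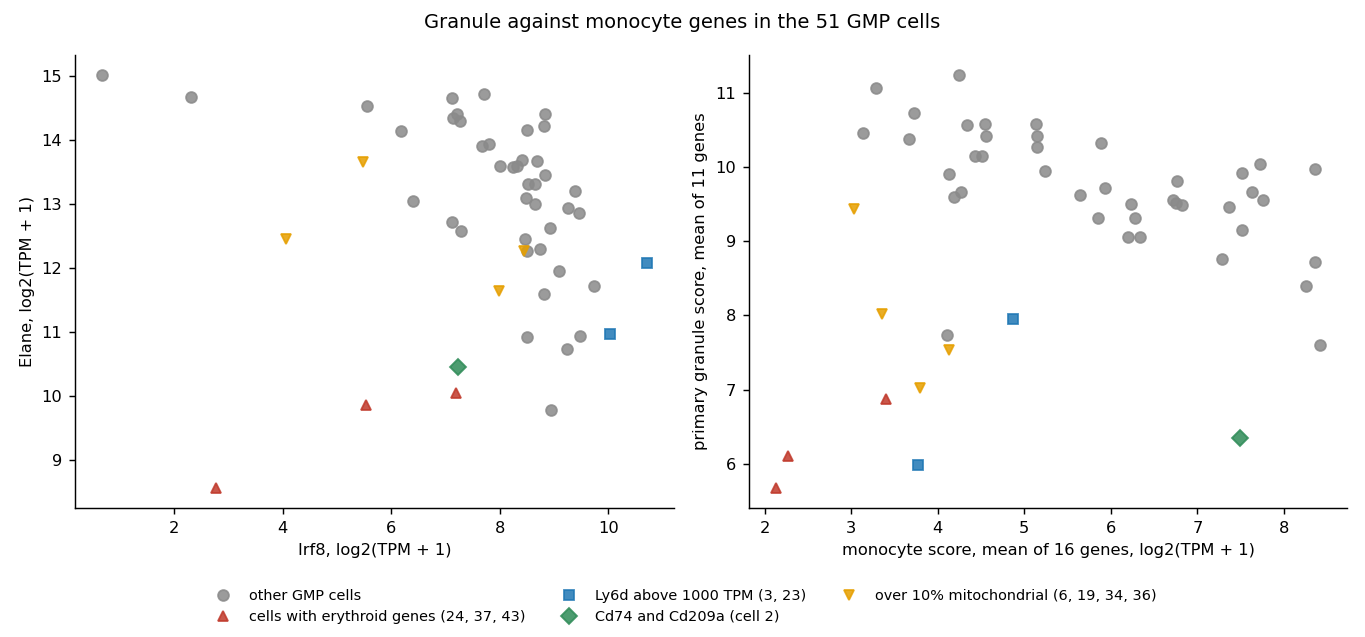
Left, log2(TPM + 1) of Elane against Irf8. Right, the primary granule score against the monocyte score, both as mean log2(TPM + 1) over the list genes that enter the score. Each point is 1 of the 51 GMP, with the cells that stand apart marked. The grey cells slope downward in the right plot (-0.60 over the 41), while the marked cells lie mostly low on the primary granule axis.

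At 100 TPM, no GMP had more than 2 basophil and mast cell genes. None of 51 cells had 3 or more of the 18 listed genes at 100 TPM (up to 5.88% of cells is allowed by this count), and cells 38, 41 and 48 had 2, but 6 cells had 3 or more at 10 TPM and 12 at 1 TPM. Hdc was the most common, with 0, 33.7 and 543 TPM (lowest, median, highest) and 13 cells at 100 TPM or more (25.5%, 14.3 to 39.6), against 10.6% of cMoP and none of 48 CLP or 65 LMPP, counts that allow shares of up to 6.25% and 4.62%. Mcpt8, a basophil protease, was at 3365 TPM in cell 48, 342 in cell 41, 194 in cell 23, 162.25 in cell 38 and 127 in cell 50, and at 84.7 TPM or less in the other 46. Cpa3, the carboxypeptidase of mast cells and basophils, was at 328 TPM in cell 6 and 231 TPM in cell 40. No cell had both Mcpt8 and Cpa3 at 100 TPM, but 5 and 2 such cells cannot show that the genes keep apart. Of the 5 cells with Mcpt8, 3 had Hdc. Gata2, the factor of this lineage, was in 11 cells at 1 TPM or more and reached 44.3 TPM. The high-affinity IgE receptor alpha chain Fcer1a and the mast cell proteases Cma1, Tpsb2, Tpsab1 and Mcpt4 were listed at 0. Eosinophil genes were rarer still: Epx, Prg2 and Il5ra were listed at 0, Prg3 reached 96.6 TPM and no cell had 3 of the 10 listed genes at 100 TPM.

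Most GMP carried the transcripts of dividing cells. At 100 TPM or more, 45 of 51 cells had 5 or more of 16 S phase genes (88.2%, 76.1 to 95.6) and 30 had 5 or more of 18 G2/M genes (58.8%, 44.2 to 72.4), against 38.5% and 16.9% of LMPP and 92.4% and 54.5% of cMoP. Both counts were reached by 29 GMP and neither by 5. Pcna, the DNA polymerase clamp, was at 4.59, 566 and 1329 TPM and Cdk1, the mitotic kinase, at 0, 363 and 1705 TPM (lowest, median, highest). The G2/M genes were uneven between cells: Ube2c ran from 0 through 96.2 to 2496 TPM and Mki67 from 0 through 12.2 to 144 TPM. Most like Mki67 were Hmgb2 (0.63), Fmnl1, Ccna2, Birc5, Ccnb1, H2afz, Tpx2 and Tuba1b. The S and G2/M scores were nearly unrelated (0.10), and the S score rose with genes per cell (0.64), the G2/M score less so (0.32). The third component, with 2.95% of the variance, followed the G2/M score (0.73) with Fbxo5, Hist1h4d, Hist1h3i, Smc2, Ube2c, Aurka, Asf1b and Prc1 at its upper end, but gave 0.28 without the 10 cells that stand apart and 0.49 without cells 3 and 23. The G2/M score gave 0.00 with the primary granule score and 0.13 with the monocyte score. Phase was not called in single cells.

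**Figure D4:**
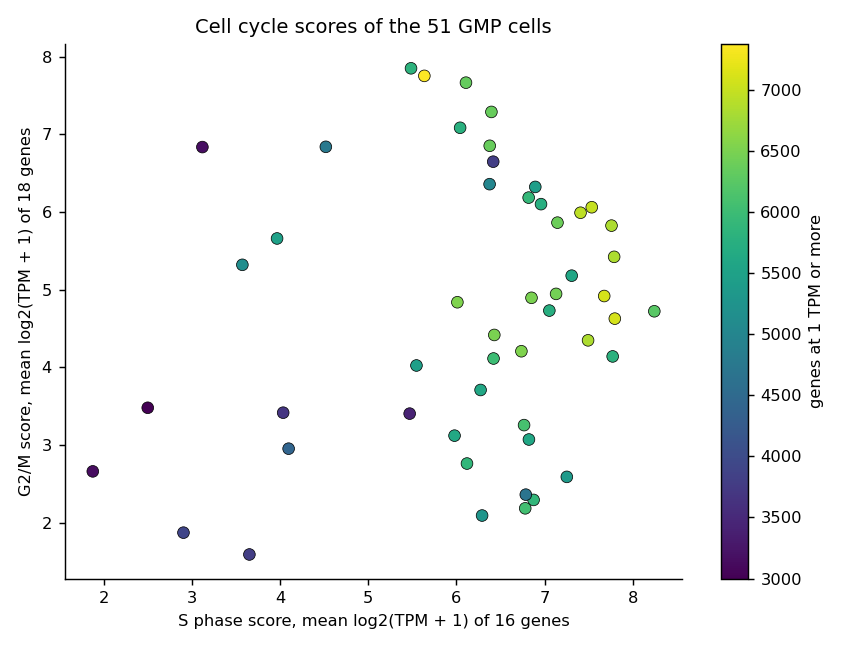
G2/M score (18 genes) against S phase score (16 genes), both mean log2(TPM + 1), in the 51 GMP; colour gives how many genes reached 1 TPM in the cell. Cells of high S score span a wide range of G2/M scores, and the 4 cells with the lowest S scores are among those with the fewest genes.

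In cells 24, 37 and 43 a set of erythroid genes was on. Car1 (carbonic anhydrase 1) was at 19359, 8184 and 6285 TPM in cells 24, 37 and 43, and at no more than 292.1 TPM in the other 48. Klf1, the erythroid factor, was at 586, 598 and 341 TPM against at most 36.4 TPM elsewhere, and Gfi1b at 515, 449.7 and 211 TPM against at most 1.02 TPM. Gata1 was at 269.1, 257.7 and 628 TPM, and the next cell, number 16, was at 102 TPM. These 3 cells, 5.88% of the gate (1.23 to 16.2), had 4 to 6 of the 12 erythroid genes at 100 TPM, and no other GMP had 3. No LMPP, cMoP, CLP or pre-pro-B cell did. Alpha globin was in 2 of the 3: Hba-a1 was at 43.2 TPM in cell 24, 0 in cell 37 and 194 TPM in cell 43, the highest of the gate, and Hba-a2 at 30.5, 0 and 101.65 TPM. The beta globins Hbb-bs and Hbb-bt were listed at 0 in all 3. Granule genes were low but above 0 in all 3, with Elane at 924.8, 376 and 1049.8 TPM and Mpo at 1363, 241.8 and 2892 TPM. The LMPP medians were 0 TPM for Elane and 0.46 TPM for Mpo. In the block of library numbers of GMP, the medians were 8.12 and 24.7 TPM in CLP and 11.2 and 13.2 TPM in pre-pro-B cells. CLP cell 42 had 349 TPM of Elane. Whether part of the granule transcripts in these 3 cells came from neighbouring libraries was not tested. The number of genes in these cells, 3668 to 5610, lay within the range of the others. The genes at 100 TPM or more in all 3 and in at most 1 other GMP were Klf1, Gata1, Gfi1b, Sdsl and Vamp5. No doublet caller was run, and whether these libraries hold RNA of more than 1 cell was not tested.

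Ly6d, which encodes a surface protein of early lymphoid cells, set 2 cells far above the rest. It was at 14619 TPM in cell 3 and 6256 TPM in cell 23, and between 3.49 and 59.7 TPM in the other 49. The threshold of 1000 TPM therefore fell in a wide gap, and the 2 cells are 3.92% of the gate (0.478 to 13.5). Low Ly6d was in every GMP (median 18.8 TPM), and in 0% of LMPP and 1.52% of cMoP at 1 TPM or more. In the pre-pro-B cells of the same block of library numbers Ly6d had a median of 17387 TPM, and Cox6a2, also abundant there, was in 40 GMP at 1 TPM or more. Whether the low Ly6d of the other GMP came from those neighbouring libraries was not tested.

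Cells 3 and 23 shared other genes with pre-pro-B cells and pDC. Siglech, a receptor of pDC, was at 253 TPM in cell 3 and 1580 TPM in cell 23 and at most 7.4 TPM in the rest. Cox6a2 was at 3981.5 and 1590.2 TPM against at most 79.7 TPM, and Flt3 at 236.5 and 115 TPM against at most 86.0 TPM. The 2 cells also had the highest Irf8 (1050.5 and 1667 TPM) and the highest Bst2 (939.01 and 542 TPM) of the 51, although Bst2 was at 100 TPM or more in 28 cells. They were not alike throughout. At 100 TPM or more, cell 3 alone had Tcf4 (739 TPM, against 64.1 in cell 23 and at most 81.8 in the rest) and Ccr9 (443 TPM), and cell 23 alone had Spib (229.6 TPM). Cell 23 also had Cd7 (521 TPM) and Cd300c (505.6 TPM), which cell 3 lacked and which 1 other GMP each had at 100 TPM or more, namely cell 2 for Cd7 and cell 44 for Cd300c. Of 12 pDC genes cell 3 had 4 and cell 23 had 7 at 100 TPM, and no other GMP had 3. Of 12 early lymphoid genes they had 5 and 4, and no other GMP had 3 or more. That list includes Ly6d, so part of the count was fixed by how the cells were picked. Dntt, the polymerase of antigen receptor joining, was at 4.13 and 2.03 TPM, while its CLP median was 1692 TPM, and Pax5, the B cell commitment factor, was listed at 0. Il7r, the receptor of lymphoid progenitors, was at 0.83 TPM in cell 3 and 48.2 TPM in cell 23, against at most 1.77 TPM in the rest and a CLP median of 40.5 TPM. Blnk, a B cell signalling adaptor, was at 43.7 and 229 TPM against at most 2.07 TPM. Cell 23 was the only GMP with 3 of the 12 B lineage genes at 100 TPM (Blnk, Cd79b and Ighm), and 17 cells had 2. Both cells kept granule transcripts, with Elane at 1997 and 4316 TPM and Mpo at 1733 and 3951.4 TPM, far above the pre-pro-B medians of 11.2 and 13.2 TPM. Both had low Csf1r (0.67 and 0 TPM). Among the genes at 100 TPM or more in both cells, 17 named genes were at that level in at most 1 other GMP. Of the 17, 5 were at that level in 50% or more of pre-pro-B cells: Ly6d, Cox6a2, Siglech, Fyb and Flt3. In pDC 4 of the 17 met this share, all of these but Flt3. In CLP it was met by Cox6a2 (79.2%), Flt3 (66.7%) and Ly6d (60.4%). Ly6d is the gene by which the 2 cells were picked. No share among other genes is set beside these counts, so they do not measure likeness to a gate. Cells 3 and 23 had 3791 and 4775 genes, fewer than the median GMP, and whether either library holds RNA of more than 1 cell was not tested.

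Cell 2 had antigen presentation genes at levels no other GMP reached. Cd74, the invariant chain, was at 2930.0 TPM against at most 73.7 TPM in the other 50 cells, H2-Aa at 470.1 TPM against at most 8.39, and the lectin Cd209a at 980.1 TPM against at most 64.5. It also had the highest Lgals3 (3227 TPM), S100a4 (3225 TPM) and Cst3 (6756 TPM) of the gate, with Csf1r at 1.14 TPM. Elane was at 1393 TPM.

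Against LMPP, the multipotent progenitors, GMP differed first in granule, monocyte, protein folding and cell cycle genes. The value for each gene is the GMP mean minus the LMPP mean of log2(TPM + 1), and a gene is counted higher or lower at a difference of 1 or more. Of 9315 genes compared, 59.3% were higher in GMP and 8.82% lower, with a median difference of 1.36, so most genes were higher and GMP also had more genes per cell. With the log2 of the mean TPM in place of the mean of the logs the shares were 30.1% and 22.5% and the median 0.22. On that background 9 of 11 primary granule genes were higher (median 6.30), led by Elane (12.69) and Ctsg (11.36). For monocyte genes 15 of 16 were higher (3.93), and so were 13 of 15 ER folding genes (4.26), 18 of 18 G2/M genes (3.37), 15 of 16 S phase genes (3.28) and 9 of 12 growth factor receptor genes (2.94). Among the 10 largest differences, those outside the lists were Ap3s1, Slpi (a protease inhibitor), Mt1 (metallothionein) and Taf10. Mt1 and F13a1 were listed at 0 in all 65 LMPP.

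What GMP had less of than LMPP were stem cell and lymphoid genes and part of the immediate-early set. For multipotency genes 9 of 11 compared were lower and none higher (median -2.04), including Meis1 (-5.45), Hlf (-3.95) and Angpt1 (-3.83), and for early lymphoid genes 5 of 8 were lower (-1.40), including Flt3 (-3.65). Of 13 immediate-early genes, induced by handling or signalling, 8 were lower and 3 higher (-1.28): Fos was lower by 3.25 on the log2 scale, but Ier2 was higher by 2.72. The genes lowest against LMPP were Car2 (-7.42), Rgs1, Gimap6, Ctla2a, Pan3, Sept2, Pim1, D7Ertd715e, Calcrl and Arglu1.

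Against cMoP, the next monocyte-committed stage, GMP had about as many genes higher as lower, with granule genes leaning to GMP and single monocyte genes lower. Of 11004 genes compared 22.8% were higher in GMP and 19.7% lower, with a median of 0.00. The split turned with the scaling, to 18.2% and 24.6% with size factors and to 16.98% and 29.9% with the log2 of the mean TPM. The monocyte list as a whole differed little, with a median of -0.18, 5 of 16 genes above 0 and 11 below. Called lower in GMP were 5 of the 16 and none higher, beside 19.7% and 22.8% of all genes. The 5 were F13a1 (-1.67), Ccr2 (-2.47), Klf4 (-2.26), Cybb (-2.08), which encodes the NADPH oxidase core, and Mpeg1 (-1.96). Other members were closer, such as Irf8 (-0.12), Csf1r (-0.49) and Ly6c2 (0.71). Zeb2, a factor of monocyte identity, was lower by 2.47 on the log2 scale. In the other direction 6 of 11 primary granule genes were higher and none lower (1.05), among them Ctsg (1.82), Elane (1.33) and Prtn3 (1.32), while Mpo differed by 0.24. Factors higher in GMP included Cebpd (4.51), Spi1 (4.28), Nfe2 (2.89), Cebpb (2.87) and Cebpe (1.51). Hdc was higher by 1.92 and Il3ra by 2.37.

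Cell cycle genes did not move as a block between GMP and cMoP. Of 18 G2/M genes 9 were higher and 4 lower in GMP (median 0.60), with Ccna2 (2.66) and Cdc20 (2.62) higher and Top2a (-2.60) and Mki67 (-1.80) lower. Of 16 S phase genes 2 were higher and 3 lower (-0.30), with Uhrf1 (-2.66) the lowest. Both medians changed sign under other settings, from -0.34 to 0.78 for G2/M and from -0.64 to 0.55 for S phase. The ER folding median was 0.03 and ran from -0.38 to 0.33. Of 12 immediate-early genes 7 were higher and none lower (1.28), led by Ier2 (4.34) and Junb (3.91). The list median had the opposite sign against LMPP, but Ier2 (2.72) and Junb (2.46) were higher in GMP there too. The 2 contrasts share the GMP cells. The largest single differences were Taf10, Glrx5, Tgfb1, Ppp1r14b, Pgls, Hist1h2ap, Nsmce4a, Tmem160, Ube2s and Lsm4, higher in GMP, and Calb1 (-8.48), Zfp260, Sept2, Itpripl1, Pfas, Prr15, Bhlhe41, D7Ertd715e, Dpysl2 and Actr2, lower. Taf10, a subunit of the general factor TFIID, had a median of 295 TPM in GMP and 0 in both cMoP and LMPP, whose library numbers form other blocks, and gate and block cannot be told apart for such genes.

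Against CLP, whose library numbers lead up to those of GMP, the GMP programme stood beside a lymphoid one. Of 8694 genes compared 58.7% were higher in GMP and 2.52% lower, with a median of 1.22, again with more genes per cell in GMP. With the log2 of the mean TPM the shares were 21.6% and 10.7% and the median 0.20. Primary granule genes were higher in 10 of 11 cases (median 3.90), with Elane at 9.53, Ctsg at 9.31, Prtn3 and Ms4a3 at 8.33 and Mpo at 7.51. Monocyte genes were higher in 12 of 16 cases (2.65), ER folding genes in 14 of 15 (2.89), S phase genes in 15 of 16 (2.55) and G2/M genes in 17 of 18 (2.69). Spi1 was higher by 2.82, Nfe2 by 5.80 and Cebpd by 3.78.

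The genes higher in CLP were lymphoid, dendritic and immediate-early. For early lymphoid genes 9 of 10 were lower in GMP and none higher (median -4.13), with Dntt, the template-independent polymerase of lymphocytes, at -7.84 and Flt3 at -4.99. For pDC genes 6 of 8 were lower (-2.10), with Cox6a2 at -6.12, and for immediate-early genes 11 of 14 (-3.07), with Egr1 at -5.50 and Fos at -5.36. Irf8 was close in the 2 gates, at 7.73 ± 1.94 in GMP and 7.25 ± 3.42 in CLP. The named genes lowest against CLP were Dntt, Cox6a2, Ccl4, Sept1 and Gimap6.

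**Figure D5:**
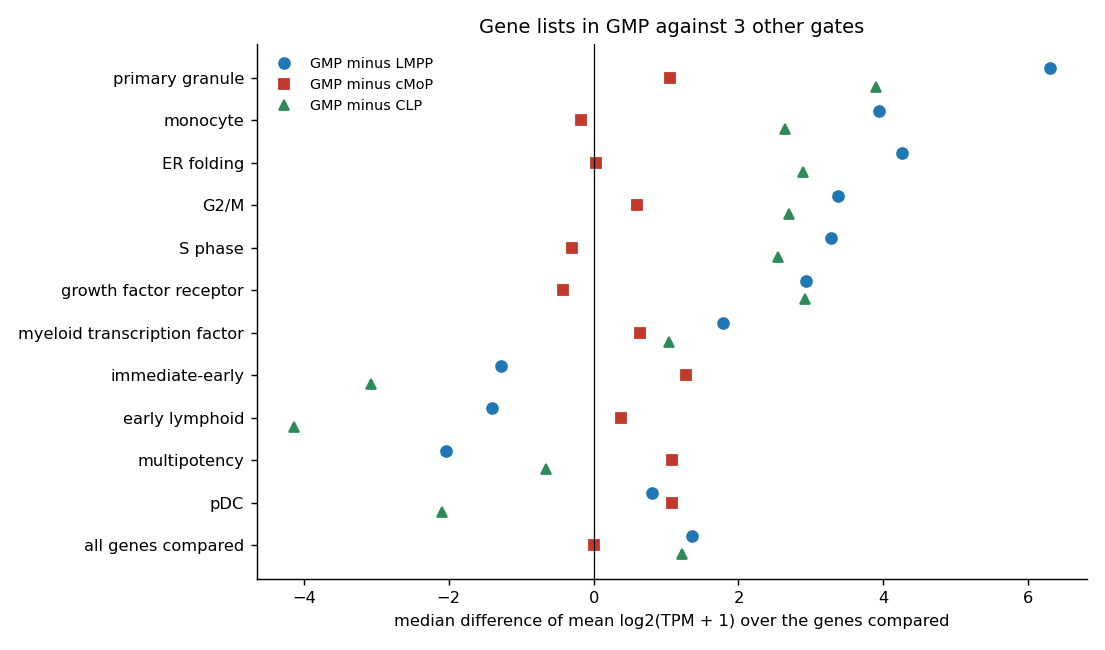
Median difference of mean log2(TPM + 1) over the genes compared of 11 lists and of all genes, GMP minus LMPP (circles), cMoP (squares) and CLP (triangles); 0 means no difference. Primary granule genes lie furthest right against LMPP and CLP (6.30 and 3.90), and against cMoP the lists drawn lie within 1.28 of 0, where the S phase, G2/M, ER folding and all-gene medians change sign with the setting, as does multipotency against CLP.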

How the data were processed

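Each library is 1 cell. The deposited values are TPM, which the authors made with RSEM 1.2.19 on GRCm38, per the submitters' processing notes; the aligner and the gene annotation were not given in the sources used here. In all 43280 gene symbols are listed, 15695 of them at 0 in every cell. Each cell sums to between 997617 and 1e+06 TPM, so read depth is unknown. Columns were matched to cells by name.

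From these values log2(TPM + 1) was computed, with means and SDs over cells. A contrast compared every gene that reached 1 TPM in 20% or more of the cells in either gate, and counted differences of 1 or more. Scores, Spearman correlations and principal components used GMP alone. Shares carry exact Clopper-Pearson 95% intervals, and a count of 0 carries a limit of 3 counts, both for counting error only. No animal is named, so no test was made. Scripts ran under Python 3.11.15 with scipy 1.17.1 for ranks and intervals, pandas 2.3.3 and numpy 2.4.6 for tables and components, and matplotlib 3.10.9 for figures. The contrast and correlation steps were tested on simulated data.

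The named genes were the markers of the gate, members of the gene lists, the 10 largest differences per direction against LMPP and cMoP and the 5 largest against CLP, the 15 largest SDs, and the genes closest to each anchor gene and component. The members and lists were chosen with earlier results of these data known. Alternatives were the pseudocount, the order of mean and log, size factors, filters on genes and cells, TPM levels, member minimums and cells left out. No doublet caller was run, and the 5% of cells with the most genes were left out as an alternative instead.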

Additional observations from a re-analysis of the deposited data

How the results depend on the processing

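Of 587 alternative values for 75 results, 100 moved by more than the stated tolerance and no called value changed sign. With a pseudocount of 0.1 the median over all genes was 2.26 for GMP minus LMPP and 2.04 for GMP minus CLP, and 35.4% of genes were lower than in cMoP. With a pseudocount of 10 the GMP minus LMPP medians were 0.54 over all genes, 4.12 for primary granule and 2.12 for monocyte genes, with 32.2% of genes higher and 4.28% lower. Against cMoP 11.4% were then higher and 5.73% lower, and against CLP the medians were 0.48 and 2.26 (primary granule), with 22.7% higher and 1.53% lower. With the log2 of the mean TPM, the medians were 0.22 and 3.33 (primary granule) against LMPP, with 30.1% higher and 22.5% lower, and 0.20 and 1.68 against CLP, with 21.6% higher and 10.7% lower, and 29.9% were lower than in cMoP. With no filter on low values more genes enter, and the shares higher and lower were 30.8% and 4.70% against LMPP, 11.5% and 10.2% against cMoP, and 31.9% and 1.45% against CLP. Among cells with Xist and no Y-linked transcript 6.43% of genes were lower than in CLP. LMPP and cMoP had no such cells, so this alternative gave no value there. List medians near 0 changed sign with the setting: against cMoP S phase ran from -0.64 to 0.55, G2/M from -0.34 to 0.78, ER folding from -0.38 to 0.33 and all genes from -0.27 to 0.24, and against CLP multipotency ran from -1.42 to 0.58.

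Programme counts depended on the TPM level. At 1 and 10 TPM the counts of cells were 12 and 7 for later neutrophil genes, 12 and 6 for basophil and mast cell genes, 47 and 27 for early lymphoid, 18 and 5 for B lineage, and 51 and 49 for G2/M genes. At 1000 TPM they were 8 for monocyte genes and 0 for early lymphoid, B lineage, S phase and G2/M genes. With 2 members needed they were 3 for later neutrophil, 3 for basophil and mast cell and 18 for B lineage genes, and with 4 members 0 for B lineage genes. The primary granule and monocyte scores gave -0.60 without all 10 cells that stand apart. The third component and the G2/M score gave 0.13 with scaled genes, 0.49 without the Ly6d-high cells and 0.28 without the 10 cells. Leaving out the erythroid cells, the cells of high mitochondrial share, or all 10 was chosen after seeing the data. Read depth is unknown, so a gene listed at 0 in a cell may have been missed. No paired analysis was possible because each gate is 1 sample and no result comes from a test.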
